A study of Mus musculus with 6 samples.

Results

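The genes of glycolysis and of the hypoxia response were examined in endothelial cells sorted from mouse LN. The set holds 32 genes chosen by name: the enzymes that carry glucose to lactate, the kinases that hold pyruvate back from the mitochondria, the hypoxia-inducible factors (HIF) with their prolyl hydroxylases, and well-known HIF targets. Of the 32, 28 had at least 1 probe set of their own (66 probe sets in all) among the 18193 genes measured. Gapdh and Bnip3l had only control probe sets or probe sets shared with a pseudogene, and are described apart. Gpi1 and Eno1 were not analysed here because no probe set of the platform table used carries either symbol. Each gene was read at the probe set of its own with the highest mean over the 6 arrays.

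RNA was measured on 6 whole-genome GeneChip mouse arrays, 3 for double-positive cells (CD45neg gp38+ CD31+) and 3 for CD31+ cells (CD45neg CD31+, without gp38), with the replicate numbers 1 to 3 in each group. All cells came from untreated 6-week-old C57BL/6 mice. Skin-draining and mesenteric LN were pooled and digested, CD45+ cells were removed with beads, and the gates were sorted, so that the cells are a mixture of several LN and of the vessel types in each gate. The labels call the double-positive arrays BEC and the CD31+ arrays LEC, whereas the sort of the study defines LEC by gp38 and CD31 together. Here the gate word names each array. Grouped by the cell type word, every difference below would have the opposite sign.

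Glycolysis splits glucose into pyruvate in the cytosol, and lactate dehydrogenase turns pyruvate into lactate. Endothelial cells are known for drawing much of their ATP from this route, and PFKFB3, which makes an activator of phosphofructokinase, is a known driver of it in sprouting vessels. The factors HIF-1α (Hif1a) and HIF-2α (Epas1) pair with ARNT and bind a short DNA element. With oxygen present, prolyl hydroxylases (the Egln genes) mark the α subunits for destruction, so mRNA of a HIF gene does not show its protein level. HIF-2α was first described as an endothelial PAS protein of blood vessels.

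The deposited values are log2 RNA abundances normalized with GCRMA, which corrects for background by probe sequence and sets a common floor, here at 2.39. Differences are given on this log2 scale as double positive minus CD31+, between group means. Values of different probe sets are not comparable with each other. Fewer cells of a type in a gate and less RNA per cell cannot be told apart in these sorted bulk samples. Nothing in the labels ties an array to single animals, so the p-values measure the spread between sorted pools.

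The gates were checked against marker lists. Of 13 lymphatic endothelial markers, limma called 9 higher and 0 lower in double-positive arrays at 5% FDR, and of 11 blood endothelial markers it called 0 higher and 7 lower. Of the lymphatic markers, Prox1 and Nrp2, named after their values were seen, overlapped between the groups. Prox1, the regulator of the lymphatic lineage, had 6.73, 6.56 and 9.20 in double-positive arrays and 7.32, 6.92 and 8.04 in CD31+ arrays (difference 0.07). Lyve1, a hyaluronan receptor of lymphatic vessels, had log2 values of 10.98 to 11.19 in double-positive arrays and 5.51 to 6.08 in CD31+ arrays, and Pdpn, which encodes gp38, had 7.28 to 8.32 in double-positive and 3.29 to 3.75 in CD31+ arrays. Flt1, a VEGF receptor, had 3.45 to 3.54 in double-positive arrays and 7.77 to 8.24 in CD31+ arrays, and Cd34, a sialomucin of blood vessels, had 3.29 to 3.58 in double-positive and 7.40 to 8.03 in CD31+ arrays. Pecam1, the CD31 gene, was at or near the floor on all 6 arrays (2.39 to 2.59). Cdh5 (VE-cadherin) had 5.31 to 6.01 in double-positive arrays and 5.28 to 6.14 in CD31+ arrays. Of the 11 pan-endothelial markers, limma called 0 higher and 0 lower, but they were not all level. Cldn5 averaged 11.42 in double-positive and 7.65 in CD31+ arrays. Robo4 (4.41 in double-positive, 6.23 in CD31+ arrays) and Esam (2.61 in double-positive, 3.71 in CD31+ arrays) ran the other way. Cldn5, Robo4 and Esam were named after their values were seen. The 15 measured B cell, T cell and myeloid markers had no mean of 5 or more, and the highest group mean among them was that of Ptprc (CD45), 2.67 in double-positive arrays and 3.72 in CD31+ arrays. The log2 values of 5 erythrocyte and platelet markers summed to 20.0 to 21.5 on double-positive arrays and 16.8 to 19.3 on CD31+ arrays, with no overlap, and limma called 0 higher and 0 lower. Pf4, a platelet chemokine, had 8.13, 9.03 and 8.34 in double-positive arrays and 6.46, 8.31 and 8.24 in CD31+ arrays. Itga2b, the platelet integrin subunit, had 5.44, 5.25 and 4.49 in double-positive arrays and 3.04, 3.52 and 3.21 in CD31+ arrays. Alas2, Hba-a1 and Ppbp stayed between 2.39 and 2.59 on all 6 arrays, and the part of such cells in the members' differences was not tested.

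The double-positive arrays were brighter as a whole, and this bears on every member. The 3984 genes that averaged 5 or more had a median difference of 0.73 (quartiles 0.23 and 1.21), and 83.7% of them had a positive difference. The share of probe sets at 5 or above was 13.8% to 14.7% on double-positive arrays and 10.7% to 12.6% on CD31+ arrays, with replicate 3 of CD31+ the lowest. Centring each array on the median of its bright probe sets lowers every difference by 0.68. Among bright probe sets the median difference also varied with level, at 0.54 for means between 5 and 6, 0.67 between 6 and 7, 0.76 between 7 and 8, 0.87 between 8 and 9, 1.08 between 9 and 10, 1.20 between 10 and 11 and 1.17 between 11 and 12. Above these it was 1.09 between 12 and 13 (78 probe sets) and 0.77 between 13 and 14 (38 probe sets), so that it grew with level only as far as 11. A member is therefore read below against the median of its own level as well as against 0. The part of this shift in the members' differences was not tested further.

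None of the 28 members passed limma at 5% FDR over all 45037 probe sets, 0 higher and 0 lower, against 0.879% of genes called higher and 0.176% called lower. At an unadjusted p under 0.05, 3 members were higher (Pfkfb3, Ldha and Ndrg1) and 1 was lower (Epas1), against 12.5% and 2.12% of all genes and 37.4% and 4.47% of genes with a mean of at least 5. The groups did not overlap for 5 members higher in double-positive arrays (Pfkfb3, Pgam1, Ldha, Ndrg1 and Higd1a) and 1 lower (Epas1), against 16.9% and 3.42% of all genes and 46.9% and 5.5% of those with a mean of at least 5. Over the 28 members the higher counts are thus near the shares of all genes. The members counted all had a mean of at least 5. Out of the 15 such members the higher counts are below the shares that all bright genes gave. With 3 arrays against 3, an exact permutation test cannot give a two-sided p under 0.1.

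**Figure D1:**
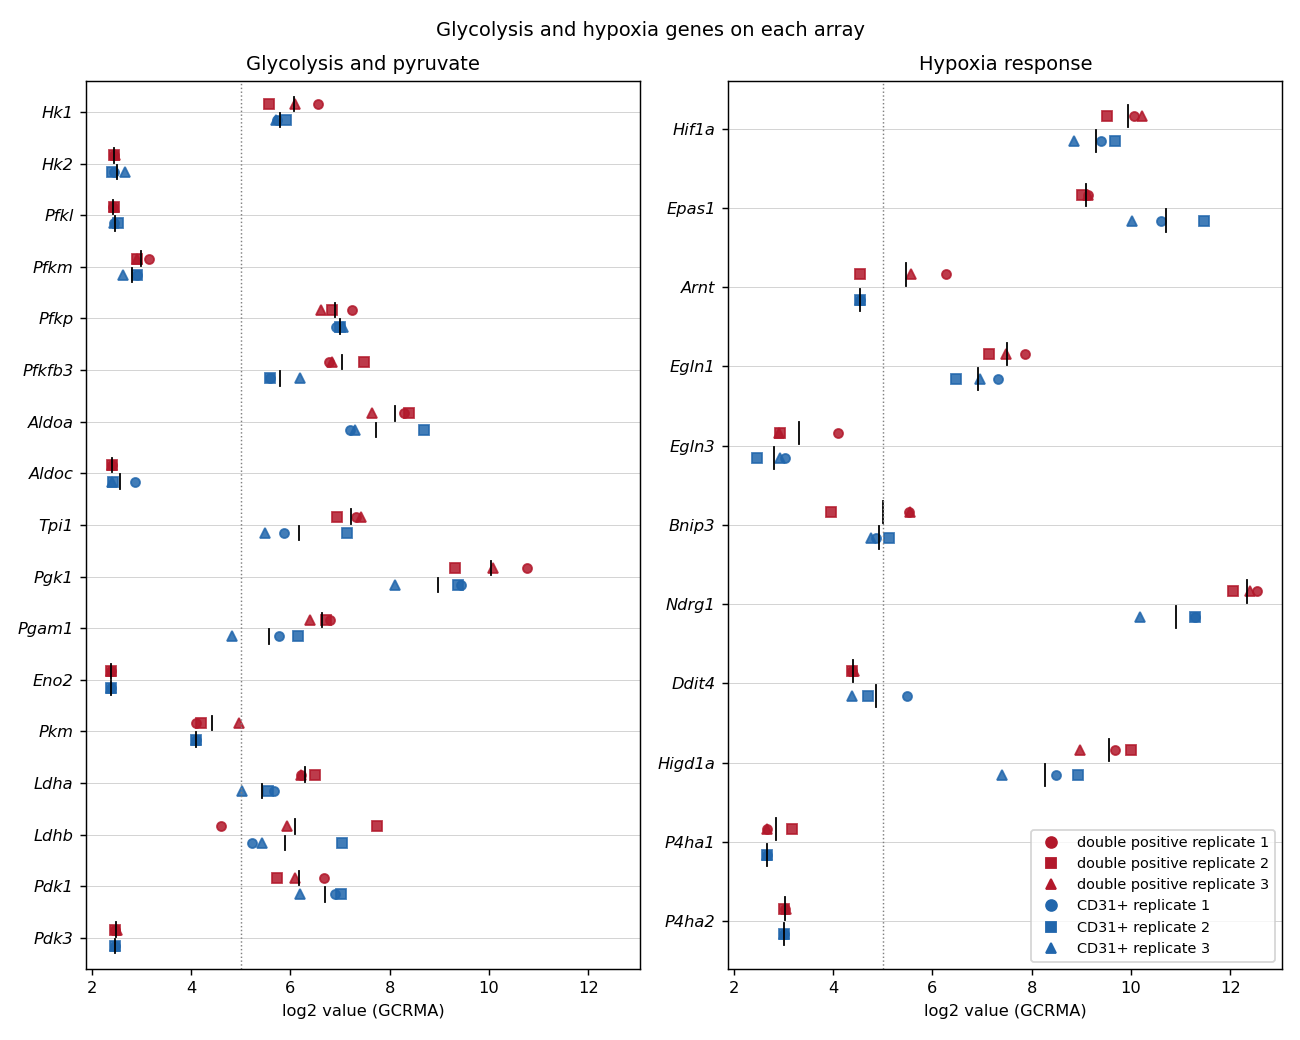
Log2 value of the 28 members on each array, with glycolysis and pyruvate genes on the left and hypoxia response genes on the right. Red symbols are double-positive arrays, blue symbols are CD31+ arrays, the shape gives the replicate number, black bars are group means of 3 arrays and the dotted line marks a log2 value of 5. The 3 blue symbols of Epas1 lie between 10.02 and 11.47, above the red ones at 9.01 to 9.14, while for Ndrg1 the red ones lie above the blue.

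Keeping only probe sets that reached 5 on 3 or more arrays (the filter on dim probe sets) left 6088 probe sets, and 16 of the 28 members were tested in it. None of the 16 passed through the arrays of a single group. Pfkfb3, Ldha and Ndrg1 were then called higher and Epas1 lower at 5% FDR, in a fit where 33.2% of the 4207 genes were called higher and 4.11% lower. With the replicate number as a block and the filter, 7 members were called higher (Pfkfb3, Tpi1, Pgk1, Pgam1, Ldha, Ndrg1 and Higd1a) and 1 lower (Epas1), against 46.4% and 4.99% of genes. With the filter and centred arrays, 0 members were called higher and 2 lower (Epas1 and Pdk1), against 12.6% and 9.63%. Epas1 was the only member called in the same direction in all 3 of these fits.

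Of the 28 members, 18 reached a log2 value of 5 on at least 1 array, 9 stayed under 5 on all 6, and Eno2 lay at the floor on all 6. Eno2 gives no information on a difference, since a value at the floor has no order. The 9 members that stayed under 5 were dim, some of them near the floor, and their differences were not interpreted. They include the hexokinase Hk2 (2.41 to 2.67 over all 6 arrays), the phosphofructokinase subunits Pfkl (2.43 to 2.53) and Pfkm (2.62 to 3.15), the aldolase Aldoc (2.41 to 2.87), the pyruvate dehydrogenase kinase Pdk3 (2.46 to 2.51), the oxygen sensor Egln3 (2.47 to 4.11) and the collagen prolyl hydroxylases P4ha1 (2.68 to 3.17) and P4ha2 (3.01 to 3.06). Pkm, the pyruvate kinase gene, had 4.09, 4.21 and 4.96 in double-positive arrays and 4.10, 4.09 and 4.09 in CD31+ arrays. The position of a probe set along the transcript could matter for such values, since controls of Gapdh and Actb were far dimmer toward the 5′ end.

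Epas1 (chromosome 17, 86753864 to 86833410, GRCm38.p6) encodes HIF-2α and was the only member with an unadjusted p under 0.05 in the lower direction. It had log2 values of 9.13, 9.01 and 9.14 in double-positive arrays and 10.60, 11.47 and 10.02 in CD31+ arrays. Every double-positive array was below every CD31+ array, and the CD31+ arrays were the more scattered. The difference was -1.60 (standard error 0.406, limma adjusted p = 0.294), so that the abundance in CD31+ arrays was 3.04 times that in double-positive arrays. The adjusted p was 0.0131 with the filter, 0.00304 with the filter and the replicate block, and 0.000426 with the filter and centred arrays, where the difference was -2.28. Leaving out double-positive replicate 1 ended the call with the filter, and the difference then was -1.62. Among the 457 probe sets with a mean between 9 and 10, 2.4% had a smaller difference. A second, dimmer Epas1 probe set had 3.24, 3.24 and 3.43 in double-positive arrays and 5.58, 3.90 and 4.29 in CD31+ arrays, again with no overlap.

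Some markers of cells that surround blood vessels moved with Epas1. The log2 values of 8 pericyte and smooth muscle markers summed to 26.2 to 26.7 on double-positive arrays and 27.4 to 31.5 on CD31+ arrays, with limma calling 0 higher and 0 lower. Acta2, the smooth muscle actin, averaged 3.98 in double-positive arrays and 6.32 in CD31+ arrays, while Des and Cnn1 were at the floor on all arrays. Rgs5, a pericyte gene and the brightest of the 8, overlapped between the groups, with 7.02, 7.61 and 7.74 in double-positive arrays and 7.24, 8.13 and 5.98 in CD31+ arrays (difference 0.33, limma adjusted p = 0.904). The sums of 10 fibroblastic reticular markers overlapped, at 45.8 to 49.7 on double-positive arrays and 43.6 to 52.8 on CD31+ arrays. Of these 10, Thy1 and Postn were called higher and 0 were called lower, but the averages of Col1a2 (3.34 in double-positive arrays and 6.45 in CD31+ arrays), Col3a1 (4.08 in double-positive arrays, 7.22 in CD31+ arrays) and Pdgfrb (3.97 in double-positive arrays, 6.89 in CD31+ arrays), named after their values were seen, ran the other way, and Col1a1 and Lum lay at or near the floor. The part of such cells in the Epas1 difference was not tested.

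Hif1a, which encodes HIF-1α, the paralogue with the broader tissue range, had 10.06, 9.52 and 10.22 in double-positive arrays and 9.40, 9.67 and 8.85 in CD31+ arrays. The groups overlapped, and the difference of 0.63 (95% interval -0.20 to 1.46, limma adjusted p = 0.659) was below the median of 1.08 at its level and -0.05 with centred arrays. A second bright Hif1a probe set had a difference of -0.04, with 7.40, 6.40 and 7.58 in double-positive arrays and 7.47, 7.28 and 6.73 in CD31+ arrays. The sign of the Hif1a difference thus depended on the probe set and on the scaling. Whether Epas1 and Hif1a differ from each other in their response was not tested.

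Arnt, the partner of both α subunits, had 6.26, 4.53 and 5.58 in double-positive arrays, and it had 4.54, 4.54 and 4.53 in CD31+ arrays. Double-positive replicate 2 lay with the CD31+ arrays, and the difference of 0.92 did not pass (limma adjusted p = 0.659). Egln1, the prolyl hydroxylase PHD2 and the main oxygen sensor of HIF-1α, had 7.87, 7.14 and 7.48 in double-positive arrays and 7.32, 6.48 and 6.97 in CD31+ arrays. The double-positive array was the higher of each same-numbered pair, but the groups overlapped, and the difference of 0.57 (95% interval -0.25 to 1.40) turned to -0.10 with centred arrays. With the filter and the replicate block its adjusted p was 0.107.

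Ndrg1 (chromosome 15, 66929318 to 66969641), a stress gene known to be induced by hypoxia and by differentiation, had the largest positive difference of the 28. It had log2 values of 12.54, 12.06 and 12.39 in double-positive arrays and 11.29, 11.28 and 10.18 in CD31+ arrays. The groups did not overlap, and CD31+ replicate 3 was the lowest. The difference was 1.42 (standard error 0.379, limma adjusted p = 0.326), a 2.67-fold abundance. With the filter the adjusted p was 0.0186, and with the filter and centred arrays the difference was 0.74 and the adjusted p was 0.0926. Without double-positive replicate 1 or 3 the call with the filter was lost, at differences of 1.31 and 1.39. At its level the median difference was 1.17, and 70.9% of the 172 probe sets there had a smaller one.

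A second bright Ndrg1 probe set was the only one of the 66 own probe sets that passed limma over all probe sets. It had 8.43, 8.21 and 8.35 in double-positive arrays and 7.27, 7.29 and 7.06 in CD31+ arrays, a difference of 1.12 (adjusted p = 0.0397). Counting a gene by any probe set of its own gives 1 member called higher and 0 lower, against 1.06% and 0.225% of all genes. The other 3 Ndrg1 probe sets were dim.

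Higd1a, a small protein of the inner mitochondrial membrane that HIF-1 induces, had 9.68, 10.01 and 8.97 in double-positive arrays and 8.49, 8.93 and 7.41 in CD31+ arrays. The groups did not overlap, by a narrow margin between double-positive replicate 3 and CD31+ replicate 2, and replicate 3 was the lowest of either group. The difference was 1.28 (95% interval -0.13 to 2.68, limma adjusted p = 0.630). With the filter the adjusted p was 0.0508, and with the filter and the replicate block it was 0.0043, the double-positive array being the higher in 3 of 3 pairs.

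Bnip3, a mitochondrial protein that drives mitophagy under low oxygen, had 5.52, 3.96 and 5.55 in double-positive arrays and 4.86, 5.13 and 4.77 in CD31+ arrays. Double-positive replicate 2 was the lowest of the 6 arrays and the other double-positive arrays were the highest. The difference of 0.09 had an interval of -1.30 to 1.48. Ddit4, also called REDD1, an inhibitor of mTORC1, had 4.38, 4.39 and 4.42 in double-positive arrays and 5.49, 4.71 and 4.38 in CD31+ arrays, with the groups meeting at CD31+ replicate 3, and a difference of -0.47 (95% interval -1.32 to 0.39). Bnip3l, the paralogue of Bnip3, was seen only through 3 probe sets shared with its pseudogene, with differences of 0.75, 1.49 and 0.50. The one at 1.49 had 7.30, 7.63 and 7.37 in double-positive arrays and 5.73, 7.15 and 4.96 in CD31+ arrays, and passed with the filter (adjusted p = 0.0465). Signal of a gene and of its pseudogene copy cannot be told apart in such a probe set.

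**Figure D2:**
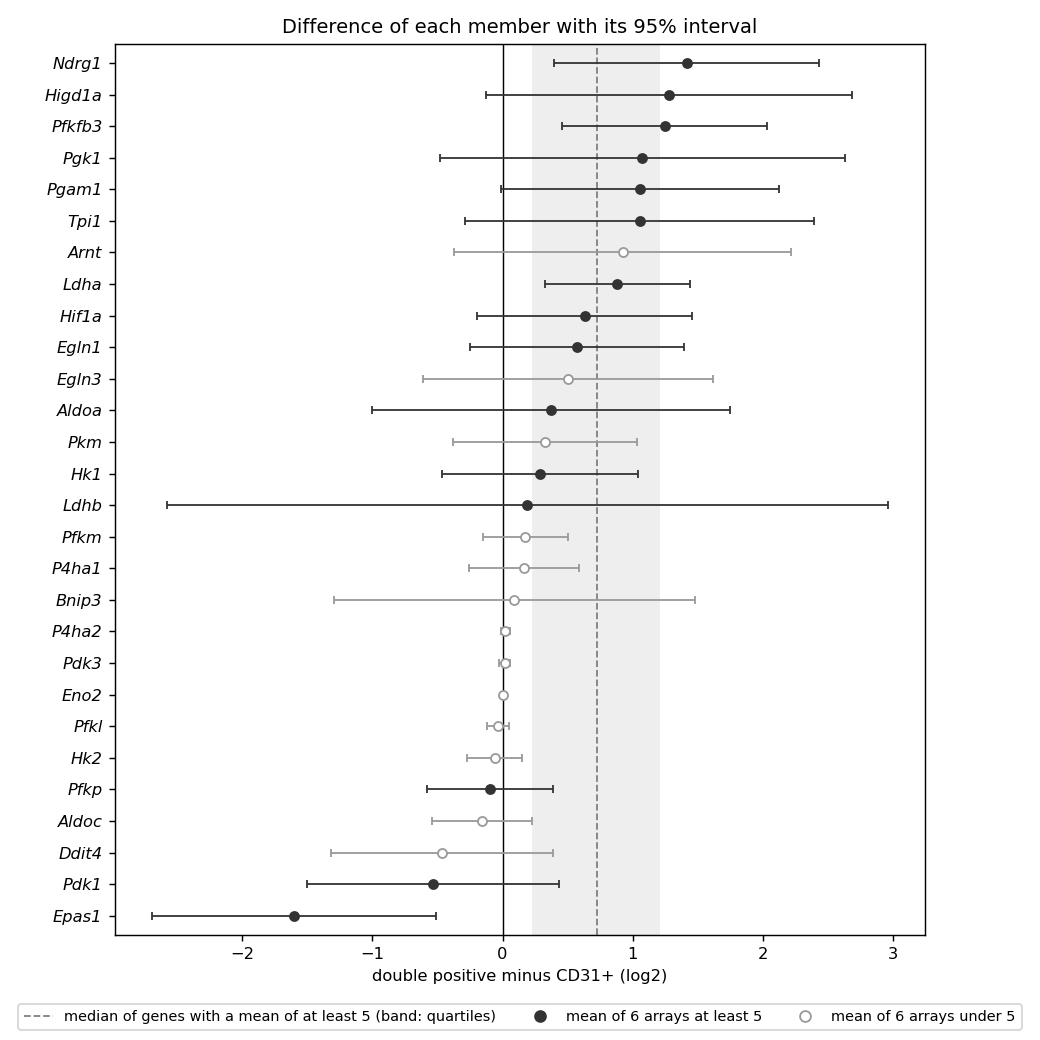
Difference of each of the 28 members (double positive minus CD31+, log2) with the 95% interval from limma, sorted from highest to lowest. Filled points have a mean of at least 5 over the 6 arrays, open points a lower one. The dashed line and the grey band are the median (0.73) and quartiles (0.23 and 1.21) over the 3984 genes with a mean of at least 5. Only the interval of Epas1 lies wholly below 0, and those of Ndrg1, Pfkfb3 and Ldha lie wholly above it.

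Of the genes of the first steps of glycolysis, 3 could be read above the dim range. Hk1, the widely expressed hexokinase that traps glucose as its phosphate, had 6.55, 5.57 and 6.10 in double-positive arrays and 5.72, 5.91 and 5.71 in CD31+ arrays. The groups overlapped, with double-positive replicate 2 the lowest array, and the difference of 0.29 turned to -0.39 with centred arrays. Pfkp, the platelet-type phosphofructokinase subunit, was the only 1 of the 3 subunit genes above the dim range. It had 7.24, 6.84 and 6.61 in double-positive arrays and 6.93, 7.00 and 7.06 in CD31+ arrays. These groups overlapped, with a difference of -0.10 (95% interval -0.58 to 0.38) where the median of its level was 0.67, and 13.7% of the 1317 probe sets there had a smaller one.

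Pfkfb3 (chromosome 2, 11471430 to 11554071) makes fructose 2,6-bisphosphate, the activator of phosphofructokinase. It had log2 values of 6.78, 7.49 and 6.83 in double-positive arrays and 5.58, 5.58 and 6.19 in CD31+ arrays. The groups did not overlap, and double-positive replicate 2 was the highest array. The difference was 1.25 (standard error 0.292, limma adjusted p = 0.255), a 2.37-fold abundance. With the filter the adjusted p was 0.0192, and the call was lost without double-positive replicate 2 (difference 1.02) or CD31+ replicate 1 (difference 1.15). With centred arrays the difference was 0.57, and 80.3% of the probe sets at its level had a smaller uncentred one. A second Pfkfb3 probe set was at the floor.

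Aldoa, the aldolase of most tissues, had 8.28, 8.39 and 7.64 in double-positive arrays and 7.20, 8.69 and 7.30 in CD31+ arrays. CD31+ replicate 2 was the brightest of all, so that the groups overlapped, and the difference of 0.37 became -0.30 with centred arrays. Its 2 other probe sets above a mean of 7 had differences of 0.93 and 0.96. Tpi1, triosephosphate isomerase, had 7.31, 6.93 and 7.42 in double-positive arrays and 5.87, 7.14 and 5.48 in CD31+ arrays, again with CD31+ replicate 2 among the double-positive values. The difference was 1.06 (95% interval -0.29 to 2.40), and the adjusted p of 0.0813 with the filter became 0.0399 with the filter and the replicate block.

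Pgk1, the first enzyme of the pathway to yield ATP, had 10.77, 9.30 and 10.07 in double-positive arrays and 9.43, 9.38 and 8.11 in CD31+ arrays at its brightest probe set. The groups overlapped through double-positive replicate 2, and the difference of 1.07 was at the median of its level (1.08). A second Pgk1 probe set separated the groups, with 8.38, 7.72 and 7.71 in double-positive arrays and 6.89, 6.74 and 6.23 in CD31+ arrays, a difference of 1.32 (adjusted p = 0.222 over all probe sets and 0.0149 with the filter), and the third had a difference of 0.59. Pgam1, the brain-type phosphoglycerate mutase that most tissues use, had 6.80, 6.71 and 6.39 in double-positive arrays and 5.77, 6.14 and 4.82 in CD31+ arrays. Its groups did not overlap, with a difference of 1.06 (95% interval -0.01 to 2.13, adjusted p = 0.566 over all probe sets and 0.0548 with the filter).

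At the end of the route, Ldha (chromosome 7, 46842274 to 46855627), the lactate dehydrogenase subunit that favours lactate and a classic HIF-1 target, had 6.22, 6.49 and 6.21 in double-positive arrays and 5.67, 5.55 and 5.03 in CD31+ arrays. The groups did not overlap. The difference was 0.88 (standard error 0.208, limma adjusted p = 0.256), a 1.85-fold abundance. With the filter the adjusted p was 0.0436, and this call was lost when any 1 of the 6 arrays was left out, at differences of 0.69 (without CD31+ replicate 3) to 1.01 (without CD31+ replicate 1). With centred arrays the difference was 0.21, and 69.7% of the probe sets at its level had a smaller uncentred one.

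Ldhb, the heart-type subunit, had 4.59, 7.74 and 5.93 in double-positive arrays and 5.22, 7.03 and 5.43 in CD31+ arrays. Replicate 2 was the highest in both groups, by 2.48 in double-positive and 1.70 in CD31+ arrays over the mean of the others, and the difference of 0.19 had the widest interval of all members (-2.58 to 2.97). Its 3 other probe sets, all with a mean under 5, had differences of -0.53, -0.15 and -0.26. The same excess of both arrays numbered 2 was seen in double-positive and CD31+ arrays for the 3′ control probe set of Gapdh (1.13 and 1.48), for the second-brightest Aldoa probe set (1.33 and 2.31) and for Higd1a (0.68 and 0.98), while Egln1 went the other way (-0.53 and -0.66). The control probe set for B1 repeats read 12.84 on double-positive replicate 2 and 12.28 on CD31+ replicate 2, and 7.47 to 8.11 on the other 4 arrays. The part of these arrays in the Ldhb difference was measured by leaving both out, which gave -0.07.

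Pdk1, the kinase by which HIF-1 shuts pyruvate out of the mitochondria, had 6.67, 5.73 and 6.09 in double-positive arrays and 6.90, 7.02 and 6.19 in CD31+ arrays. It was the lower in 3 of 3 same-numbered pairs, although the groups overlapped. The difference was -0.54 (95% interval -1.51 to 0.43, limma adjusted p = 0.659). With centred arrays it was -1.22, and with the filter as well the adjusted p was 0.0118. At its level 6.8% of the probe sets had a smaller difference. Pdk1 and Ldha, whose products both bear on the fate of pyruvate, had differences of opposite sign, and the gap between them was not tested.

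**Figure D3:**
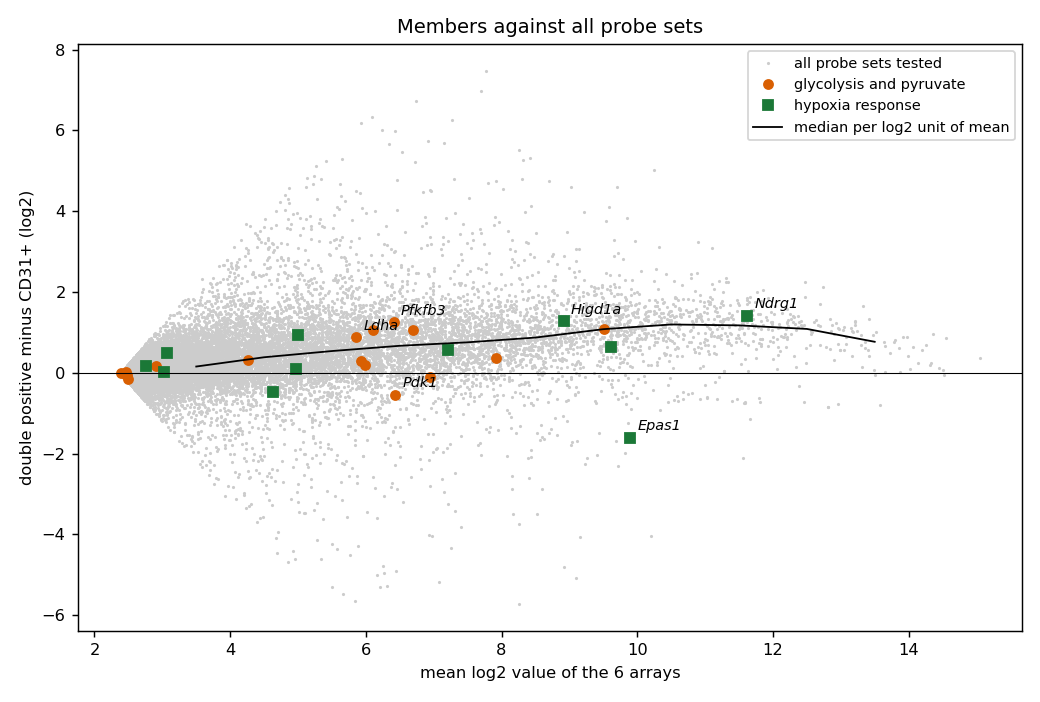
Difference of every probe set tested (double positive minus CD31+, log2) against its mean log2 value over the 6 arrays, with all 45037 probe sets in grey, glycolysis and pyruvate genes as orange circles and hypoxia response genes as green squares. The black line is the median difference per log2 unit of mean and climbs up to the unit from 10 to 11, above which it falls. Of the 15 members with a mean of at least 5, 6 lie above the median of their level and 9 below it, with Epas1 and Pdk1 the farthest below.

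As a set, the 28 members had a median difference of 0.24, against 0 over all probe sets. For the 15 members with a mean of at least 5 it was 0.63, against 0.73 over all genes of that kind. With centred arrays the 2 medians were -0.44 and -0.05. The first includes dim members, whose differences centring lowers by 0.68 even at the floor, so it is no result about them. Over the 28 members the median difference was 0.43 in pair 1, -0.0015 in pair 2 and 0.37 in pair 3. The 10 glycolysis and pyruvate genes tested with the filter had 2 called higher and 0 lower, and the 6 hypoxia response genes had 1 higher and 1 lower. The shares over all genes in that fit were 33.2% higher and 4.11% lower.

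The DNA next to the start sites was read from RefSeq for the members it held, since the HIF element has a short core that can be found by its letters. The cores ACGTG and GCGTG were searched on both strands in the 250 bases upstream of each start. CACGTG reads as a core on both strands and counts as 2 overlapping cores. Epas1 and Ndrg1 had no window in the table used. Of the 26 members with a window, 24 held at least 1 core in any window (92.3%), against 41.5% of all 27025 genes, and for the stricter ACGTG alone 19 of 37 member windows held it (51.4%), against 16.6% of all 32851. The member windows were richer in G and C, with a median of 62.8% against 52.4%, and held a median of 14 CG pairs against 6, and the shares were not matched for this. The set was also chosen to hold well-known HIF targets, so that its share of cores is no independent result. Eno2 and Tpi1 held no core. A match is a description of the letters and not a site of binding.

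Windows of 4 members are shown because their groups did not overlap at 1 or more bright probe sets and they differ in the number and spacing of cores (capitals, GRCm38.p6, 5′ to 3′ on the strand of the gene, ending just before the start). Ldha (chr7:46845554-46845803, + strand) holds 5, with a pair of palindromes, at a start inside the gene span given above. Another Ldha window, farther downstream, holds 1. The Pfkfb3 window (chr2:11502091-11502340, - strand) is that of a downstream start and holds 3, while the upstream window holds 1. For Ldha and Pfkfb3 the window with the most cores is shown. Pgk1 (chrX:106186850-106187099, + strand) holds 2, on opposite strands. Higd1a (chr9:121857797-121858046, - strand) holds 2 cores that overlap.
Ldha: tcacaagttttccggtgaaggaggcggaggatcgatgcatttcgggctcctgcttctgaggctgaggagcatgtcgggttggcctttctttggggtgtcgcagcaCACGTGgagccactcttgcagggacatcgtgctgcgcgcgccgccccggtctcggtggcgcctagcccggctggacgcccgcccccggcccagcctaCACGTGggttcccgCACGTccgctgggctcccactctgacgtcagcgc
Pfkfb3: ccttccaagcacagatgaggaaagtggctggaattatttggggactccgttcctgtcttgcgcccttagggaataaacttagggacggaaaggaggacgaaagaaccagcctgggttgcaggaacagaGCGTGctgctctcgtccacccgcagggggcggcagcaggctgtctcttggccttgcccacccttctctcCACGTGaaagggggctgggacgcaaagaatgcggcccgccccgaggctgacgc
Pgk1: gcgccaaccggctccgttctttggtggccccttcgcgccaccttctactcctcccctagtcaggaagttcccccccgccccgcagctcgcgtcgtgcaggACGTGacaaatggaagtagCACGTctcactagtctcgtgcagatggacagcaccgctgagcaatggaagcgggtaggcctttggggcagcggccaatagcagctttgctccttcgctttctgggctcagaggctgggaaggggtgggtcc
Higd1a: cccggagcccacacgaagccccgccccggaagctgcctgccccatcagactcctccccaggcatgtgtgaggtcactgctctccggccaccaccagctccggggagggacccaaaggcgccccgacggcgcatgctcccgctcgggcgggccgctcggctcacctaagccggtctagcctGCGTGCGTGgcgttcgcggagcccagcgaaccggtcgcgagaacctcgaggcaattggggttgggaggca

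Gapdh, the dehydrogenase that follows the triose step, is often used as a reference gene. Its 3′ control probe set had 8.77, 10.33 and 9.64 in double-positive arrays and 8.28, 10.05 and 8.87 in CD31+ arrays, a difference of 0.51 without a test, as controls were left out of the fit. A bright probe set shared with pseudogenes had a difference of -0.16. The 3′ Gapdh control exceeded the 5′ one by 5.36 ± 0.203 in double-positive arrays and 4.64 ± 0.238 in CD31+ arrays (SD, n = 3 each). For Actb the excess was 7.71 ± 0.126 in double-positive arrays and 6.78 ± 0.663 in CD31+ arrays (SD, n = 3 each). The 5′ control of Gapdh averaged 4.22 in double-positive and 4.42 in CD31+ arrays, and that of Actb 3.01 and 3.09. The 3′ control of Actb averaged 10.72 in double-positive and 9.87 in CD31+ arrays. The steeper slope in the double-positive arrays moved with the group and was not separated from their greater brightness. Its part in the members' differences was not tested.

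**Figure D4:**
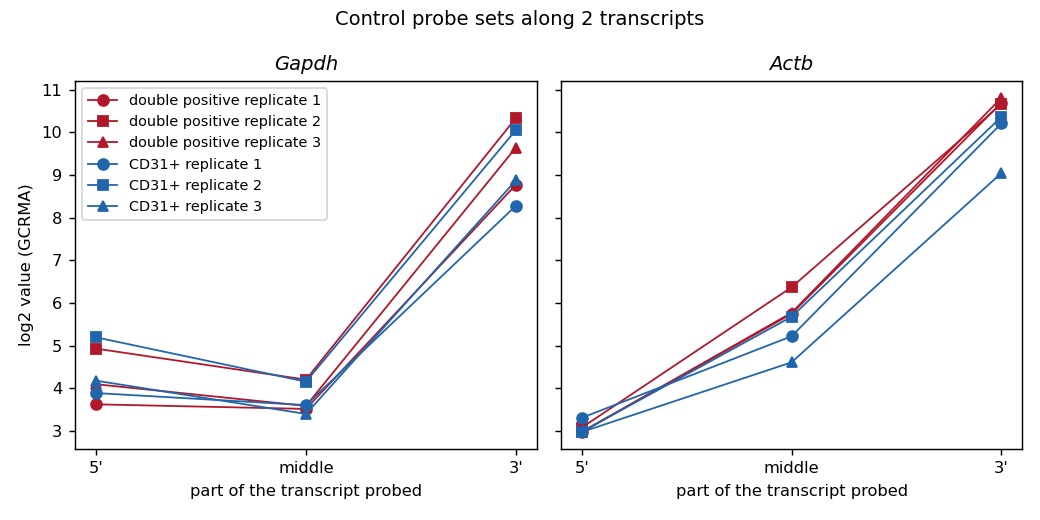
Log2 value of the control probe sets for the 5′ end, middle and 3′ end of Gapdh (left) and Actb (right) on each array, red for double positive and blue for CD31+, with the shape giving the replicate number. Both transcripts read much brighter at the 3′ end on all 6 arrays, and both arrays numbered 2 are the brightest for the Gapdh 3′ end.

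The rest of the pathway was read from 5 wider lists of genes that are not members, in which 96 of 104 genes were measured. Limma called 1 higher (Pgm2) and 1 lower (Igfbp3) of the 96 over all probe sets, against 0.879% and 0.176% of genes, and an unadjusted p under 0.05 was reached by 25 in the higher and 2 in the lower direction, against 12.5% and 2.12% of all genes and 37.4% and 4.47% of those with a mean of at least 5. With the filter 18 of 34 tested were called higher and 2 lower, against 33.2% and 4.11%. With the filter and centred arrays 3 were called higher and 2 lower, against 12.6% and 9.63%. Of the 34, 5 passed the filter through double-positive arrays alone (Dlat, Dld, Kdm3a, Pgm2 and Vegfa) and 1 through CD31+ arrays alone (Igfbp3), so that these had to differ.

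Of 22 other glycolytic and glycogen enzymes, 1 was called higher over all probe sets. This was Pgm2, a phosphoglucomutase family gene, with 5.91, 5.74 and 5.32 in double-positive arrays and 3.58, 3.09 and 3.09 in CD31+ arrays, a difference of 2.40 (limma adjusted p = 0.0492). The call was lost with the replicate block and without any 1 of the 6 arrays. Pygb, the brain-type glycogen phosphorylase, had a difference of 0.93 (adjusted p = 0.120), Pgm1 of 0.52 and the mitochondrial phosphatase Pgam5 of 0.64.

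All 6 measured pentose phosphate enzymes had a positive difference, as had 83.7% of genes with a mean of at least 5. Of the 6, 4 had such a mean. None of the 6 passed over all probe sets, against 0.879% of genes called higher. Tkt, transketolase, had 11.41, 11.42 and 11.68 in double-positive arrays and 9.87, 10.01 and 8.98 in CD31+ arrays, with no overlap and a difference of 1.88 (limma adjusted p = 0.144, or 0.0113 for centred arrays with the filter). Taldo1, transaldolase, had a difference of 1.04, and 0.36 with centred arrays. Pgls and Rpe, both dim, had differences of 0.63 and 0.52. With centred arrays these turned negative, as any positive difference smaller than 0.68 must.

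Of 11 genes of pyruvate entry and the pyruvate dehydrogenase complex, 5 were tested with the filter, which called 3 higher and 0 lower, against 33.2% and 4.11% of genes. The 3 are subunits of the complex, and Dlat and Dld reached the filter through double-positive arrays alone, so that their calls there are no support. Pdhb, part of its E1 component, had 7.76, 7.20 and 7.12 in double-positive arrays and 6.52, 6.50 and 5.71 in CD31+ arrays (difference 1.12, limma adjusted p with the filter 0.0325). Dlat (E2) and Dld (E3) had differences of 1.14 and 1.09, and Mpc1, a subunit of the mitochondrial pyruvate carrier, had 1.06. None of the 3 called genes held its call once the arrays were centred, where the lowest adjusted p was 0.270.

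Of 15 other regulators of HIF, 7 were tested with the filter, which called 1 higher, against 33.2% of genes. This was Eloc (elongin C), which sits in the ubiquitin ligase that removes HIF α subunits. It had 10.55, 10.83 and 10.01 in double-positive arrays and 9.26, 9.76 and 8.23 in CD31+ arrays, a difference of 1.38 (limma adjusted p with the filter 0.0339). Cul2, the scaffold of the same ligase, had a difference of 1.06, Siah2, which targets prolyl hydroxylases, 0.80, and Cited2, a competitor of HIF for its coactivator, 0.57.

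Of the 42 other hypoxia targets, 32 had a positive and 6 a negative difference. The positive share was 42.8% over all probe sets and 83.7% over genes with a mean of at least 5. Such a mean was reached by 14 of the 42. Over all probe sets 0 were called higher and 1 lower, against 0.879% and 0.176% of genes. An unadjusted p under 0.05 was reached by 14 with a positive and 2 with a negative difference. The shares were 12.5% and 2.12% of all genes, and 37.4% and 4.47% of those with a mean of at least 5. The filter left 16 of them, of which 11 were called higher and 2 lower, against 33.2% and 4.11%. Kdm3a and Vegfa, both among the higher calls, reached the filter through double-positive arrays alone. Once the filtered arrays were centred, 1 target was called higher and 2 lower, against 12.6% and 9.63%. Igfbp3, an IGF-binding protein, had 2.58, 2.69 and 2.59 in double-positive arrays, near the floor, and it had 6.83, 7.22 and 6.11 in CD31+ arrays. The difference was -4.10 (limma adjusted p = 0.0341), and its size is limited by the floor on the double-positive side. The call was lost with the replicate block and without any 1 array other than CD31+ replicate 3. Igfbp3 reached the filter through CD31+ arrays alone, so that its call there adds nothing. Stc1 and Stc2, paralogous stanniocalcins, had opposite signs. Stc2 had 5.61, 4.90 and 4.72 in double-positive arrays and 3.05, 2.93 and 2.63 in CD31+ arrays (difference 2.21, limma adjusted p = 0.0831). Stc1, named after its value was seen, had 4.39, 5.22 and 5.25 in double-positive arrays and 6.60, 7.36 and 6.25 in CD31+ arrays (difference -1.78, limma adjusted p = 0.249, and 0.00884 with the filter).

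Adm, which encodes the vasoactive peptide adrenomedullin, had 9.24, 8.77 and 8.37 in double-positive arrays and 7.54, 7.54 and 7.00 in CD31+ arrays, with no overlap (difference 1.43, limma adjusted p = 0.205, and 0.0116 with the filter). Kdm3a, a histone demethylase that HIF induces, had a difference of 0.93. Vegfa and Angptl4, named after their values were seen, had differences of 1.38 and 1.76 (limma adjusted p with the filter 0.0174 and 0.0135). Vegfa reached the filter through double-positive arrays alone, so that its value there is no support. Over all probe sets its limma adjusted p was 0.292. Centring the filtered arrays gave an adjusted p of 0.146 for Vegfa and 0.0398 for Angptl4.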

How the data were processed

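RNA of sorted LN endothelial cells (20 ng per sample, 2 rounds of linear amplification) was hybridized by the authors to 6 arrays, checked by pairwise reproducibility plots and normalized with GCRMA, and the deposited values are log2 abundances. Versions and the arrays normalized together are not given in the sources used here. Of 45101 probe sets, 64 controls were left out of the fit. Of the 45037 tested, 34945 map to 1 gene of the platform annotation, 932 to several and 9160 to none, and 34741 of the 34945 matched a RefSeq table (GRCm38.p6), which gave symbols and coordinates.

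The groups were compared in R 4.3.3 by limma 3.58.1 (lmFit, then eBayes, with no block, no filter, as the methods of the study name none), with Benjamini-Hochberg adjustment over all probe sets at 5% FDR and 4 residual degrees of freedom. The test was checked on simulated data. The number of arrays limits the precision. The replicate numbers were taken to pair the arrays, since the design text calls the samples paired. Same-numbered arrays also deviated together over 5764 bright probe sets (correlations of 0.341, 0.475 and 0.418, against -0.405 to 0.057 for other pairs). Deviations from a group mean cancel out within the group, so the low values of other pairs are partly fixed and give no separate support.

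Members and lists were chosen with earlier results of these data known. All 32 members are named, and of each wider list up to 4 genes with the smallest p. Values per array are given for members with an unadjusted p under 0.05, for those called with the filter and for the brightest and dimmest, and also for the other members above the dim range. Alternatives were the block, the filter, centring, quantile normalization, eBayes with trend and robust, other choices of probe set, each array left out and both arrays numbered 2 left out. The filter with each array left out was added after the data were seen. Figures were drawn with matplotlib 3.10.9.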

Additional observations from a re-analysis of the deposited data

How the results depend on the processing

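The count of members called rests on the filter and on the scaling. Over all probe sets 0 members were called higher and 0 lower with the replicate block, with trend and robust, with averaged probe sets, without both arrays numbered 2 and without any 1 array. The filter gave 3 higher and 1 lower, the filter with the replicate block 7 and 1, the filter with centring 0 and 2, the filter with quantile normalization 0 and 2, the filter with centring and replicate block 0 and 3, quantile normalization alone 0 and 1, and taking the smallest p among the probe sets of a gene 1 and 0. With the filter and each array left out the counts were 1 to 5 higher and 0 to 1 lower. Centring with no filter gave 3 and 11, since it moves probe sets at the floor with the rest, and then 67.2% of all genes were called lower, which makes it unusable for dim genes. The filter tests fewer and brighter probe sets, with 4.92 prior degrees of freedom against 0.356 over all. The block leaves 2 residual degrees of freedom, and with it limma called 2 of all genes higher (0.011%) and 0 lower, while 2293 and 374 had an unadjusted p under 0.05.

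For the wider lists, 1 higher and 1 lower became 0 and 0 with the replicate block and without both arrays numbered 2, 0 higher with quantile normalization and with trend and robust, 4 higher with averaged probe sets, 18 and 2 with the filter, 23 and 3 when the block was added, 3 and 2 with the filter and centring or quantile normalization, 6 and 3 when the block was added to centring, and 11 and 51 with centring alone. Without 1 array they were 0 to 1 in either direction, and with the filter 2 to 21 higher and 2 lower.

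The median member difference of 0.24 was 0.16 to 0.33 without 1 array and 0.48 without both arrays numbered 2. It was 0.60 with the filter (with or without the replicate block) and 0.50 to 0.83 with the filter and 1 array left out. It changed sign to -0.44 with centring, where every difference fell by 0.68, those of dim members included. The sign also changed with quantile normalization (-0.026) and with the filter and quantile normalization (-0.24). With the filter and centring (with or without the block) the median was -0.075.

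The sign changed with centring for 17 of 55 genes followed. Centring lowers every difference by 0.68, so any positive difference smaller than this had to change sign. For the dim genes among the 17 the change carries no information. The centred differences were -0.39 for Hk1, -0.50 for Pfkm, -0.30 for Aldoa, -0.35 for Pkm, -0.49 for Ldhb, -0.66 for Pdk3, -0.046 for Hif1a, -0.10 for Egln1, -0.17 for Egln3, -0.59 for Bnip3, -0.51 for P4ha1, -0.66 for P4ha2, -0.16 for Pgm1, -0.035 for Pgam5, -0.15 for Rpe, -0.043 for Pgls and -0.11 for Cited2. With quantile normalization it changed to -0.33 for Hk1, -0.41 for Aldoa, -0.074 for Pkm, -0.39 for Ldhb, -0.41 for Hif1a, -0.14 for Egln1, -0.40 for Bnip3, -0.041 for P4ha2 and -0.057 for Cited2. Leaving out 1 array changed the sign of Hk2 (0.023 without CD31+ replicate 3, otherwise down to -0.11), Pfkp (0.044 without double-positive replicate 3, otherwise down to -0.27), Ldhb (-0.63, -0.15 and -0.039 without double-positive replicate 2, CD31+ replicate 1 and CD31+ replicate 3, otherwise up to 0.94), Bnip3 (-0.17 and -0.18 without double-positive replicate 1 and 3, otherwise up to 0.62) and Cdh5 (0.074 and 0.14 without replicate 1 of double positive and of CD31+, otherwise down to -0.29). Ldhb was -0.067 without both arrays numbered 2, -0.19 with averaged probe sets and -0.53 at its probe set of smallest p, and P4ha1 was -0.043 in that setting. Where no cause is given above, the cause was not tested.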
